A study of Mus musculus with 12 samples.

Results

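The 38 genes described here encode the enzymes and transporters of glycolysis and of the pentose phosphate pathway, together with the kinases that regulate pyruvate dehydrogenase and the transcription factor HIF-1 alpha. They were chosen by name, and all 38 were present among the 24421 rows of the deposited expression table, of which 24394 carried usable gene names. RNA had been sequenced from sorted thymocytes of C57BL/6 mouse embryos. The purpose, as far as the labels state it, was to ask how conditional loss of Bcl6, a transcriptional repressor, alters T cell development.

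There were 12 libraries in 6 groups of 2. KO libraries came from Rag1KOBcl6fl/flLckCre+ embryos and control libraries from Rag1KOBcl6fl/flLckCre- embryos, so both carried the Rag1 deletion and loxP-flanked Bcl6, and the Cre transgene, driven by the T lineage Lck promoter, was present on the KO side only. Rag1 is needed to assemble T cell receptor genes, and thymocytes lacking it arrest as CD25-positive double-negative cells. An antibody to CD3 imitates the missing signal of the pre-T cell receptor. CD25 cells, 2 KO and 2 control libraries, were sorted from unstimulated thymi. ISP cells (immature single-positive, CD8 without CD4) and DP cells (double-positive for CD4 and CD8) came, with 2 KO and 2 control libraries each, from thymi kept on filters for 2 days with 1 µg/ml anti-CD3. Most labels give the embryos as E16.5, and the treatment protocol as E17.5 (embryonic days). No label says if the replicates were different embryos, so p-values measure the spread between these libraries, which may be partly technical. Xist, the X-inactivation RNA made in female cells, was at 20.5 and 0.766 RPKM in the ISP control libraries and at 22.5 and 0.914 RPKM in the DP control libraries, so the replicates of these groups held cells of different embryos.

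Glycolysis converts glucose to pyruvate in the cytosol with a small yield of ATP. Lactate dehydrogenase then turns pyruvate into lactate, or pyruvate dehydrogenase passes it to the mitochondrion. The pentose phosphate pathway branches off at glucose 6-phosphate and supplies NADPH in its oxidative arm and ribose phosphate for nucleotides in its non-oxidative arm. Thymocytes that pass the pre-T cell receptor checkpoint divide rapidly, and glucose uptake and glycolysis are known to be raised in those dividing cells and lowered in the small resting DP cells that follow.

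The libraries held 9627686 to 14190700 recovered reads. In each, 10227 to 10554 genes reached 1 RPKM (reads per kilobase of gene, scaled to library size). Groups follow the titles, but the library names recorded for 6 of the 8 anti-CD3 samples point to a different population or genotype, and the stage labels of 5 samples point to a different population. The source name gave the same population as the title in all 12. Cd4 ranged over 1.03 to 1.78 RPKM in CD25 samples, 13.9 to 20.5 in those titled ISP and 190.6 to 344 in those titled DP, and Il2ra, which encodes CD25, was at 537.6 to 603 RPKM in CD25 libraries and at 14.5 to 44.7 in the others. The whole-gene value of Bcl6 was 1.63 to 2.01 RPKM in CD25 KO and 1.49 to 1.82 in CD25 control, 18.9 to 25.1 in ISP KO and 11.6 to 11.9 in ISP control, and 87.8 to 111 in DP KO and 69.95 to 72.5 in DP control libraries. Because it counts reads over the entire gene, it is no check of the deletion.

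Of the 38 genes, 37 reached 1 RPKM in at least 2 libraries and were tested across all 12 libraries, and 36 were tested in the fit of the 4 CD25 libraries. The exception throughout was Hk3, the myeloid hexokinase, which lay between 0 and 0.341 RPKM. Its 0 reads in DP control library 2 allow a level of up to 0.0752 RPKM (3 reads). Together the 38 genes summed to 4325 ± 306 RPKM in CD25, 5390 ± 186 in ISP and 3709 ± 153 in DP libraries (SD, n = 4). In every library the sum was higher in ISP (5224 to 5656 RPKM) than in CD25 (4102 to 4766) or DP (3571 to 3890). The sum over all genes was also higher in ISP libraries (491078 to 503653 RPKM) than in CD25 (450678 to 467867) or DP libraries (421821 to 463036). Ldha alone made up 21.5% of the sum in CD25, 25.7% in ISP and 15.1% in DP, and Pkm 14.6%, 11.7% and 10.8%. In sorted bulk samples fewer cells of a type and less RNA per cell cannot be told apart.

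The ISP population had the highest mean level for 22 of the 37 tested genes (59.5%), while it was the highest for 28.1% of all 11288 genes tested. CD25 cells were highest for 8 of the 37 (21.6%, and 33.3% of all tested genes), namely Slc2a3, Pfkl, Pfkm, Pfkfb4, Aldoc, Pkm, Pdha1 and Hif1a. DP cells were highest for 7 (18.9%, and 38.6% of all tested genes), namely Hk1, Pfkfb2, Pfkfb3, Eno2, Ldhb, Pdk1 and Pdk2. These shares describe the lists and carry no test.

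**Figure D1:**
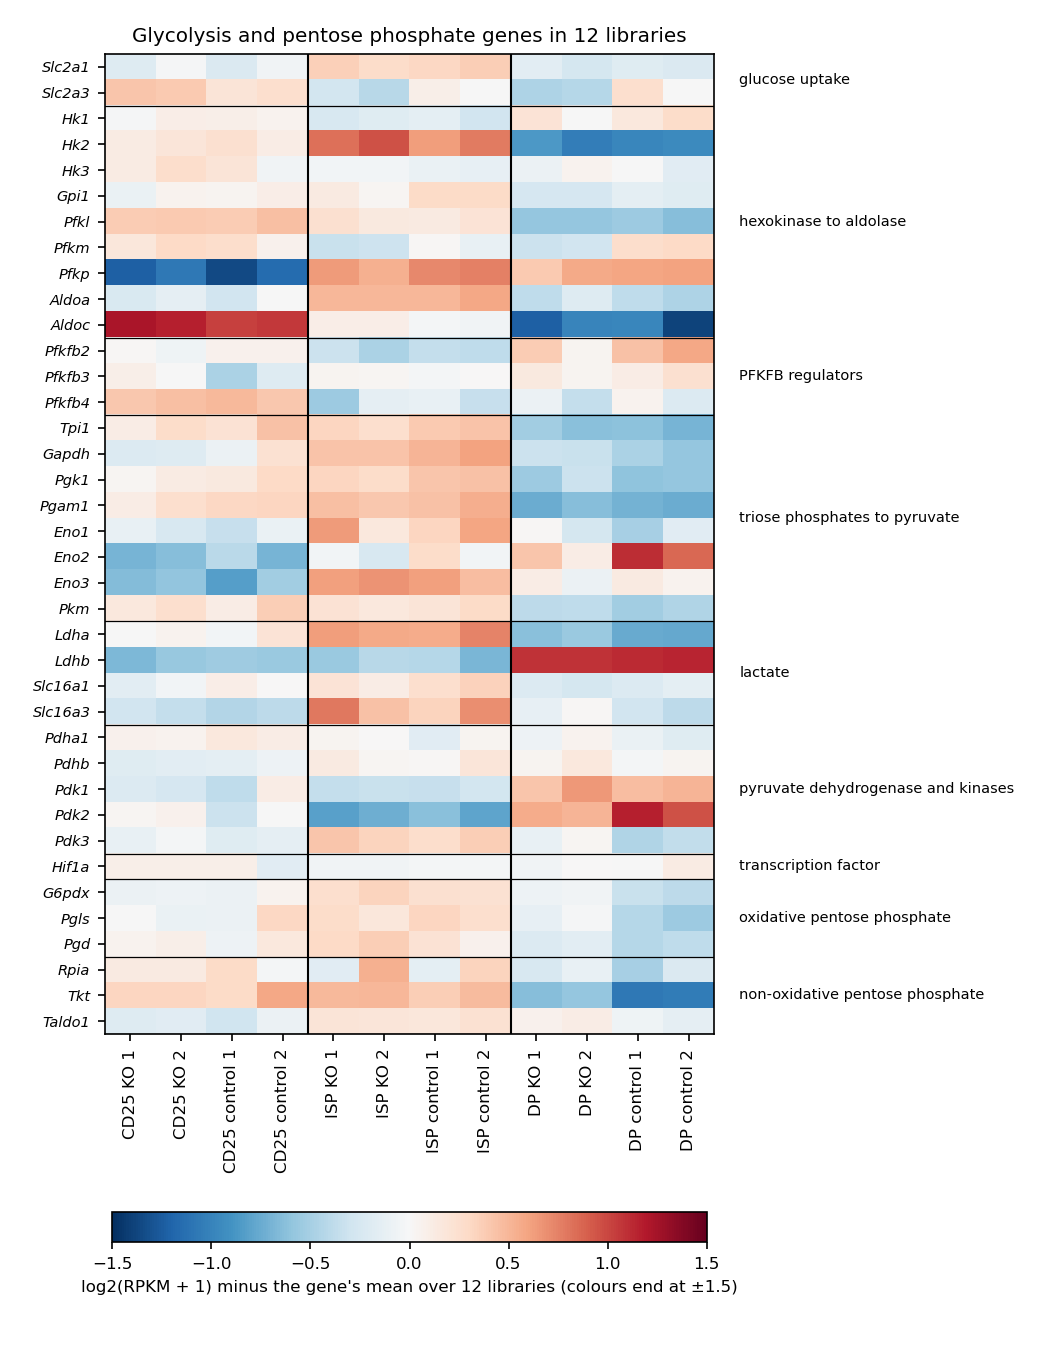
Each row is 1 of the 38 genes, grouped by step of the pathway, and each column is 1 of the 12 libraries; the colour gives log2(RPKM + 1) minus the gene's mean over the 12 libraries (red above, blue below, colours end at ±1.5). Most rows of the glycolytic trunk are red in the 4 ISP columns and blue in the 4 DP columns, while Ldhb, Pdk1 and Pdk2 are red in DP.

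ISP cells were first set against CD25 cells. A gene is called where its Benjamini-Hochberg adjusted p, from limma over all genes tested, was under 0.05, and changes are differences of log2(RPKM + 1). Of the 37 genes 20 were called higher in ISP cells (54.1%; 33.1% of all 11288 genes were called higher) and 8 lower (21.6%; 30.9% of all genes; 63.9% in either direction). The median change of the 37 was 0.18 on the log2 scale, beside 0.01 for all genes. With each library scaled to the same sum of RPKM, a scaling under which the median of all genes moved to -0.10, the counts were 15 higher and 12 lower, and with quantile normalization 16 and 12. Shares of all genes by direction were not worked out under these scalings. These counts therefore cannot be set against a background. ISP cells had been cultured with anti-CD3 and CD25 cells had not, so stage and treatment cannot be told apart here.

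DP cells were then set against ISP cells from the same kind of culture. Of the 37 genes 7 were called higher in DP cells (18.9%; 35.6% of all genes were called higher) and 23 lower (62.2%; 35% of all genes; 70.6% in either direction). The median change of the 37 was -0.48, beside 0.01 for all genes. Under equal sums of RPKM, which moved the median of all genes to 0.16, 11 were higher and 21 lower. For this scaling and for the smaller fit that follows, shares of all genes by direction were not worked out. When the fit was limited to the 4 libraries whose title and name give 1 population, 6 were higher and 21 lower, and 27 of the 30 calls were kept (Pfkm, Eno1 and Taldo1 were not). Of these 4, the ISP libraries were both number 2 and named control, and the DP libraries both number 1 and named KO. Population there cannot be told apart from replicate number or from the genotype in the name. As part of the same data, this fit does not settle which labels are right. Against CD25 cells, 10 of the 37 were higher in DP (27.0%; 37.3% of all genes) and 21 lower (56.8%; 38.4% of all genes; 75.7% in either direction). All of these stage comparisons share libraries with each other.

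**Figure D2:**
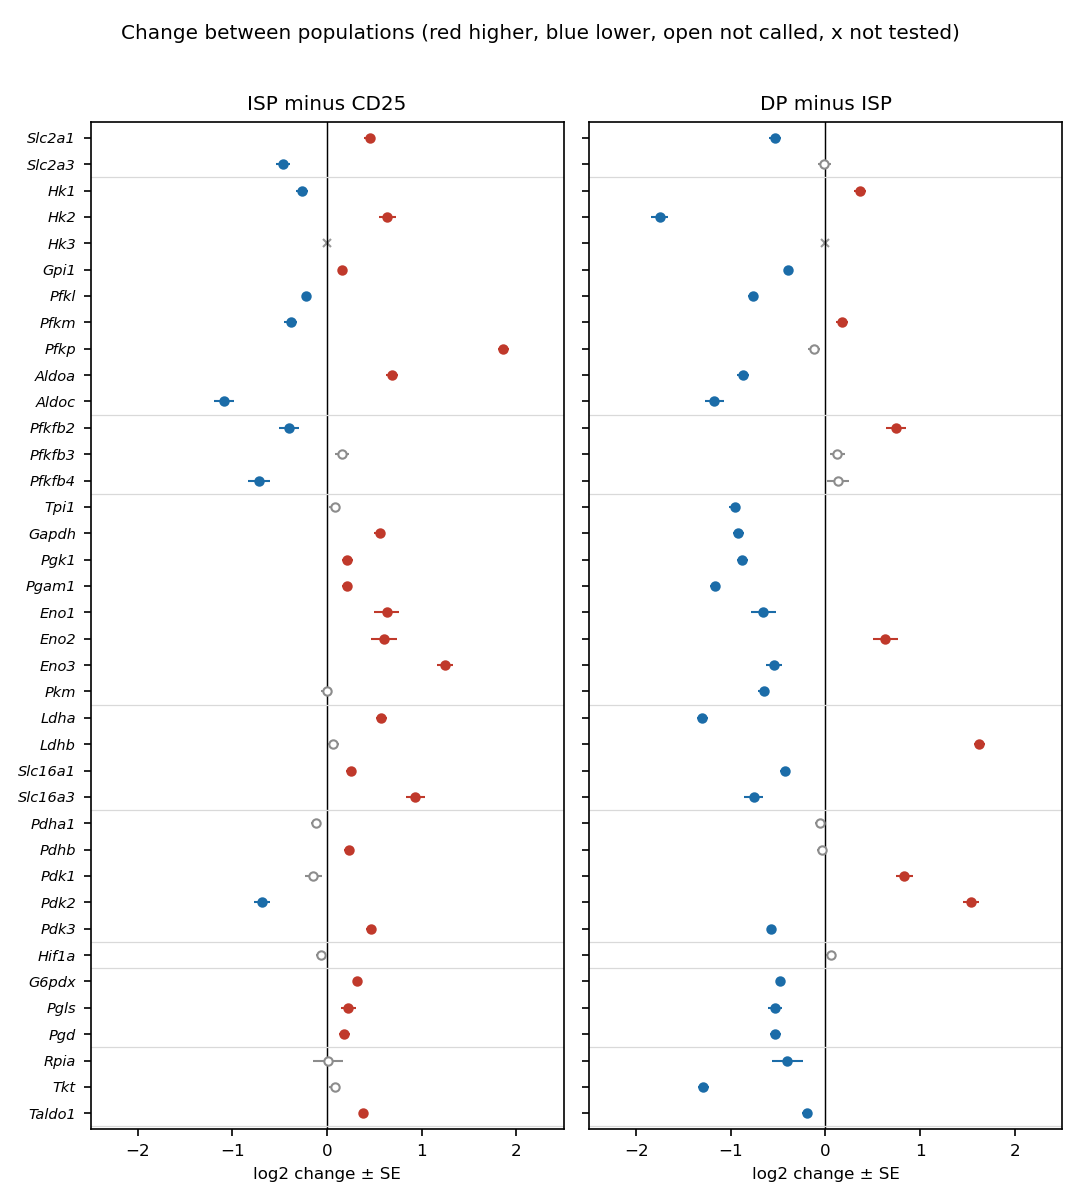
Points are the change of each gene, as log2(RPKM + 1), for ISP minus CD25 cells (left) and DP minus ISP cells (right), with 4 libraries on each side and bars of ± 1 SE; red is called higher, blue called lower, open not called and x not tested. The points of the lower glycolytic trunk lie right of 0 or at it on the left panel and, apart from Eno2, left of 0 on the right panel.

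Glucose enters thymocytes mainly through the transporters GLUT1 (Slc2a1) and GLUT3 (Slc2a3), and the pair of genes differed in its course. Slc2a1 was at 27.5, 25.9, 26.8 and 27.9 RPKM in the ISP libraries (KO 1, KO 2, control 1, control 2), against 18.5, 21.0, 18.2 and 20.5 RPKM in the CD25 libraries in that order, and at 19.0, 17.6, 18.7 and 18.2 RPKM in the DP libraries. The ISP values lay above all others, and the CD25 and DP values overlapped. Its change was 0.45 from CD25 to ISP (SE 0.06, limma adjusted p = 3.57e-05) and -0.53 from ISP to DP (SE 0.06, adjusted p = 6.06e-06). Slc2a3 was lower in ISP than in CD25 by 0.47 (9.00 against 12.7 RPKM, adjusted p = 9.76e-05) and was not called between DP and ISP (9.04 against 9.00 RPKM, 95% interval of the change -0.16 to 0.14), but there its DP values fell into a lower KO and a higher control pair, described with the genotypes.

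Hexokinase traps glucose as glucose 6-phosphate. Hk2, the inducible and mitochondrially bound form, was at 4.51, 5.04, 3.82 and 4.36 RPKM in ISP libraries, against 2.38, 2.52, 2.67 and 2.36 RPKM in CD25 libraries. In DP libraries it was at 0.720, 0.515, 0.586 and 0.609 RPKM. No value of 1 population overlapped with another population's. The changes were 0.64 for ISP minus CD25 (SE 0.09, limma adjusted p = 7.96e-05) and -1.75 for DP minus ISP (SE 0.09, adjusted p = 8.11e-09). Hk1, the constitutive form, went the other way by small steps, with means of 22.8, 18.8 and 24.6 RPKM in CD25, ISP and DP. Of the summed hexokinase level Hk2 thus held 9.72 ± 0.347% in CD25, 19.0 ± 1.97% in ISP and 2.40 ± 0.241% in DP libraries (SD, n = 4), while the sum itself was 25.5, 23.3 and 25.2 RPKM.

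Phosphofructokinase, the committed step, is a tetramer built from the liver (Pfkl), muscle (Pfkm) and platelet (Pfkp) subunits. Pfkp was at 51.4, 48.0, 54.8 and 56.0 RPKM in ISP libraries, against 13.5, 15.1, 12.2 and 14.2 RPKM in CD25 libraries, and at 43.3, 49.1, 50.01 and 50.5 RPKM in DP libraries. All CD25 values were below all others, and the ISP and DP values overlapped. Pfkp showed the greatest rise of the 37 genes between CD25 and ISP, with 1.86 on the log2 scale (SE 0.06, limma adjusted p = 2.20e-10). Pfkl fell in ISP relative to CD25 by 0.22 and in DP relative to ISP by 0.77 (SE 0.04 each, adjusted p = 8.45e-04 and 1.52e-08), with means of 57.9, 49.5 and 28.6 RPKM in CD25, ISP and DP. Of the summed level of the subunits Pfkp held 16.7 ± 1.14% in CD25, 47.7 ± 1.37% in ISP and 55.9 ± 1.33% in DP libraries, and Pfkl held 70.3 ± 1.39%, 45.0 ± 2.08% and 33.3 ± 2.32% (SD, n = 4). Pfkm was the least abundant subunit in every library, at 7.09 to 11.7 RPKM, and was lower in ISP than in CD25 by 0.38 (SE 0.07, adjusted p = 3.63e-04). Its call as higher in DP than in ISP (0.17, SE 0.07, adjusted p = 0.0363) was lost in 7 of the 8 fits that left out 1 library.

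**Figure D3:**
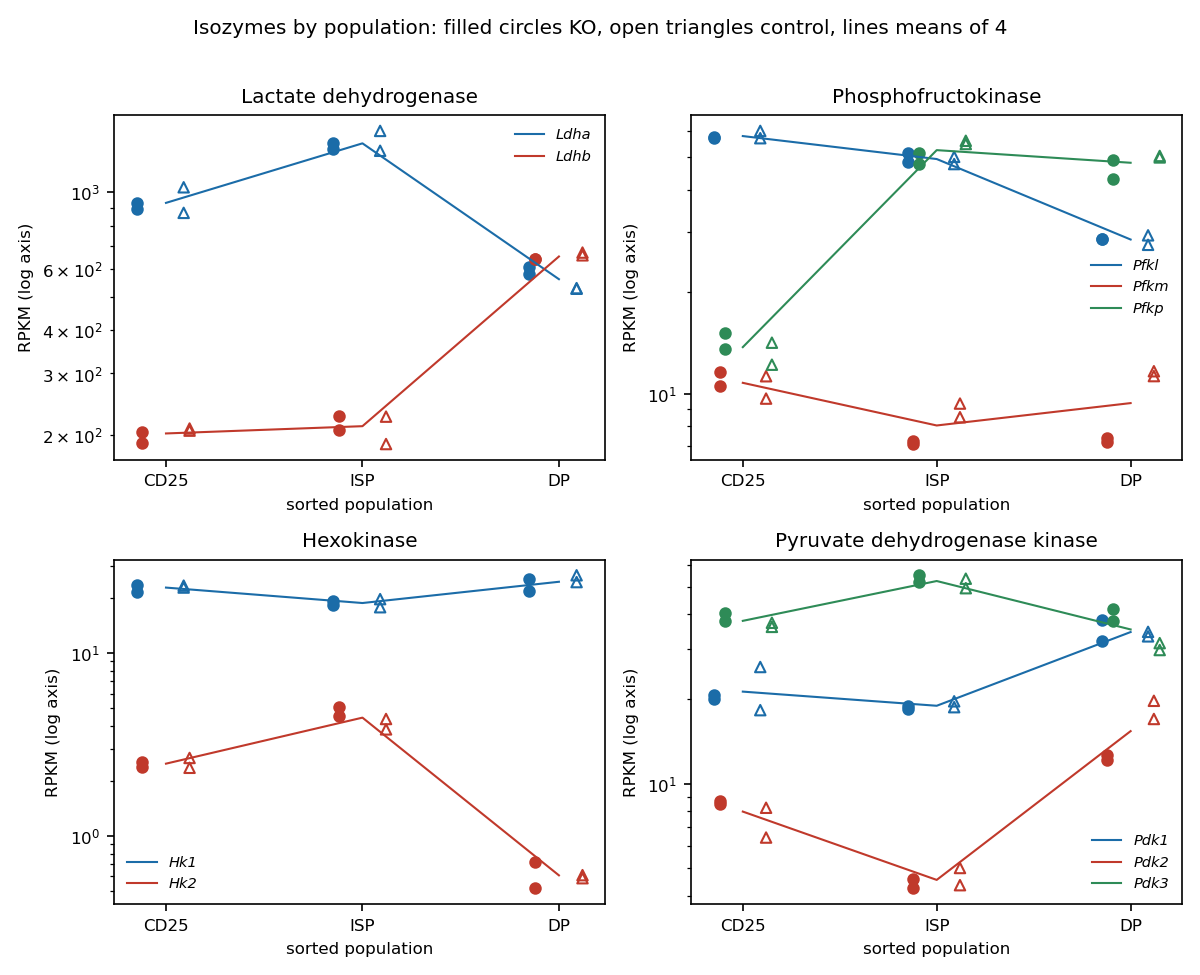
Levels in RPKM (log axes) of the isozymes of lactate dehydrogenase, phosphofructokinase, hexokinase and pyruvate dehydrogenase kinase in CD25, ISP and DP cells; filled circles are KO libraries, open triangles control libraries, and lines join the means of 4 libraries. Ldha and Ldhb cross between ISP and DP, Pfkp lies below Pfkl in CD25 and above it in DP, and Hk2 drops to 0.608 RPKM in DP.

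Gpi1, the glucose phosphate isomerase, was called higher in ISP than in CD25 (0.16) and lower in DP than in ISP (-0.40), the first of which turned to -0.04 under quantile normalization. Among the aldolases, Aldoa, the main form with 97.6 to 99.7% of the aldolase level as population means, was at 476 RPKM in ISP against 297 RPKM in CD25 (0.68, SE 0.06, limma adjusted p = 1.57e-06) and at 260.1 RPKM in DP. Aldoc, best known from brain, was at 7.86, 7.57, 6.75 and 6.95 RPKM in CD25, 3.08, 3.09, 2.72 and 2.66 RPKM in ISP, and 0.631, 0.916, 0.927 and 0.456 RPKM in DP libraries. It thus declined at each step with no overlap, by 1.09 and then by 1.17 on the log2 scale (adjusted p = 1.87e-06 and 6.38e-07). It rested on 16 to 292 reads per library.

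The PFKFB enzymes set the level of fructose 2,6-bisphosphate, the allosteric activator of phosphofructokinase. Pfkfb4 was lower in ISP than in CD25 (2.28 against 4.37 RPKM; change -0.72, SE 0.12, limma adjusted p = 1.68e-04). Pfkfb2 was lower in ISP than in CD25 (0.885 against 1.49 RPKM; -0.40, adjusted p = 0.00568) and higher in DP than in ISP (2.18 against 0.885 RPKM; 0.74, SE 0.11, adjusted p = 4.80e-05). Pfkfb3, the most abundant of these genes with 55.1%, 72.1% and 65.5% of their summed level in CD25, ISP and DP, was not called at either step (0.16 and 0.13) and was called higher in DP than in CD25 (9.00 against 7.29 RPKM; 0.28, SE 0.08, adjusted p = 0.00483).

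Of the 8 genes from triose phosphate isomerase to pyruvate kinase, 6 were higher and 0 lower in ISP than in CD25 (33.1% and 30.9% of all genes), and 7 were lower and 1 higher in DP than in ISP (35% and 35.6% of all genes). Their median change was 0.38 at the first step and -0.77 at the second. Gapdh, which makes the NADH of the trunk, averaged 558 RPKM in ISP against 382 RPKM in CD25 (0.55, limma adjusted p = 6.36e-06) and 295 RPKM in DP against 558 RPKM in ISP (-0.92, adjusted p = 4.76e-08). Pgam1, the mutase, was at 12.4, 13.4, 12.7 and 12.4 RPKM in DP libraries, against 29.6, 28.7, 29.5 and 31.8 RPKM in ISP libraries. These groups did not overlap, and the change was -1.17 (SE 0.05, adjusted p = 2.16e-09). Pkm, which encodes pyruvate kinase M and whose splice forms a value per gene does not separate, did not differ detectably between ISP and CD25 (629 against 632 RPKM, 95% interval -0.12 to 0.12; called lower under equal sums and under quantile normalization) and was lower in DP (399.6 RPKM; -0.65 against ISP, adjusted p = 4.71e-07).

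The enolases are known as a ubiquitous (Eno1), a neuronal (Eno2) and a muscle (Eno3) form. Eno3 was at 9.98, 10.4, 9.99 and 8.87 RPKM in ISP libraries, against 3.55, 3.75, 3.04 and 3.97 RPKM in CD25 libraries. All ISP values exceeded all CD25 values, and the change was 1.24 (SE 0.09, limma adjusted p = 1.27e-07). Eno2 was the only gene from the triose phosphates to pyruvate called higher in DP than in ISP (1.75 against 0.727 RPKM; 0.63, SE 0.13, adjusted p = 0.00109), on 2 to 80 reads per library. Eno1 stood at 1.66 to 4.85 RPKM, although it is the usual enolase of dividing cells. Of the 50-base stretches of its transcripts 26.0% also occur in transcripts of other genes, among them the near-identical Eno1b, so reads may have been split or discarded and the value of Eno1 is uncertain. The same holds for Pgk1 (53.9% shared), Pgam1 (36.2%), Pkm (25.8%), Gapdh (25.1%) and Ldhb (21.0%), whereas Hk2, Aldoc, Eno3, Pdk1, Pdk2, Pdk3, Tkt, Slc16a1 and Slc16a3 shared 0%.

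Lactate dehydrogenase is a tetramer of A subunits, which favour lactate formation, and B subunits, which favour its use. Ldha was at 580.0, 609.8, 529 and 527 RPKM in the DP libraries, against 1384, 1333, 1318 and 1504 RPKM in the ISP libraries, with CD25 libraries at 893, 929.8, 872 and 1034 RPKM. The populations did not overlap. Ldhb was at 641, 642, 658 and 670.0 RPKM in the DP libraries, against 206, 227, 225 and 188 RPKM in the ISP libraries, with CD25 libraries at 189, 204, 208 and 205 RPKM. Every DP value was at least as high as 641 RPKM and every other value at most 227 RPKM.

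Between DP and ISP, Ldha fell by 1.30 (SE 0.06, limma adjusted p = 2.20e-09) and Ldhb rose by 1.63 (SE 0.06, adjusted p = 3.77e-10); no other of the 37 genes rose more at this step. In the 4 libraries whose title and name give 1 population these changes were -1.35 and 1.65. Ldha was higher in ISP than in CD25 by 0.57 (SE 0.06, adjusted p = 4.06e-06), and Ldhb was not called there (0.07, 95% interval -0.06 to 0.19). Ldhb held 53.8 ± 2.27% of the summed lactate dehydrogenase level in DP, 13.3 ± 1.66% in ISP and 17.8 ± 1.13% in CD25 libraries (SD, n = 4). Slc16a3, which encodes the lactate exporter MCT4, averaged 12.0 RPKM in ISP against 5.75 RPKM in CD25 (0.93, SE 0.10, adjusted p = 4.65e-06) and 6.66 RPKM in DP against 12.0 RPKM in ISP (-0.76, adjusted p = 2.00e-05). Slc16a1, which encodes MCT1, was the more abundant in every library and moved the same way by less (0.25 and -0.43; both called).

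The promoters of the pairs that moved apart are shown for reference, as the 250 bases before the gene's start in RefSeq (build GRCm38.p6), written 5′ to 3′ on the strand of the gene. Capitals mark ACGTG or GCGTG on either strand, the core letters bound by HIF-1 dimers, and overlapping matches are joined. CACGTG, the E-box bound by MYC, holds ACGTG, so these motifs overlap. The regions are chr6:142507958-142508207 (minus strand) for Ldhb, chr7:46845554-46845803 (plus strand) for Ldha, chr13:6648772-6649021 (minus strand) for Pfkp and chr10:78009808-78010057 (minus strand) for Pfkl.
Ldhb: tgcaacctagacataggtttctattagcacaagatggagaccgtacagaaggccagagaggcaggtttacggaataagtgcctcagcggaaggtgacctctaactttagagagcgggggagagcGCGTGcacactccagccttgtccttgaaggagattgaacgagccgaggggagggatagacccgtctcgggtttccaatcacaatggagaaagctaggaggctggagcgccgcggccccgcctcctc
Ldha: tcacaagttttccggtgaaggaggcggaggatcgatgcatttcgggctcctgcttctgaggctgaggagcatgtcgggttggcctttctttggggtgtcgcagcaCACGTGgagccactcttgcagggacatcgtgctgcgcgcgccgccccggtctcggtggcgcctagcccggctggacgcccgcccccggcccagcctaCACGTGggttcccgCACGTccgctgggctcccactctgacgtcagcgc
Pfkp: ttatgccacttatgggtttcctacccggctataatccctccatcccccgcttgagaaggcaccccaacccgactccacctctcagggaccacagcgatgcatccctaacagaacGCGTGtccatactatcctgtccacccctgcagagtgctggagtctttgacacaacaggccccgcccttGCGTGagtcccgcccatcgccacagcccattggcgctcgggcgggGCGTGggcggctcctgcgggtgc
Pfkl: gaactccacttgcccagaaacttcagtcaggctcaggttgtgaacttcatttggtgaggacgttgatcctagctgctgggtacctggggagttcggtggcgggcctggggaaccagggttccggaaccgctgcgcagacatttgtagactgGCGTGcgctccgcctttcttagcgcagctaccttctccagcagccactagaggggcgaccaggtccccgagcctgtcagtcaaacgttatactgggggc
Ldha had 3 marked runs, of which 2 were CACGTG, Pfkp had 3, and Ldhb and Pfkl had 1 each. ACGTG or GCGTG occurred in the same window of 31 of the 37 members with a promoter entry (83.8%), in 58.1% of the 8512 promoters of tested genes and in 38.6% of all 27025 promoters. CACGTG occurred in 6 of the 37 (16.2%; Pfkfb2, Slc16a1, Ldha, Pdk2, Hif1a and Pfkm), in 8.75% of the promoters of tested genes and in 6.05% of all. The median GC content was 61.2% for the members, 60% for tested genes and 52.0% for all promoters. A match of letters is no evidence of binding in these cells.

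Pyruvate dehydrogenase, whose E1 subunits are encoded by Pdha1 and Pdhb, is switched off by the PDK kinases. The subunits moved little: Pdha1 was not called at either step (-0.12 and -0.06), and Pdhb was called higher in ISP than in CD25 (179.9 against 152.9 RPKM, 0.23, limma adjusted p = 0.00118), a call lost under quantile normalization (adjusted p = 0.668). The kinases changed more and in different directions. Pdk2 was at 12.6, 12.2, 19.7 and 17.0 RPKM in DP libraries, against 4.24, 4.58, 5.01 and 4.36 RPKM in ISP libraries, and at 8.47, 8.71, 6.43 and 8.21 RPKM in CD25 libraries. The ISP values were the lowest and the DP values the highest, with no overlap, and the changes were -0.68 for ISP minus CD25 and 1.54 for DP minus ISP (SE 0.08 each, adjusted p = 1.72e-05 and 9.74e-09). Pdk1 was at 32.2, 38.1, 33.4 and 34.6 RPKM in DP, against 18.5, 18.9, 18.7 and 19.6 RPKM in ISP libraries, which did not overlap (0.83, SE 0.09, adjusted p = 4.25e-06). Pdk3 went the other way, with means of 37.9, 52.5 and 35.3 RPKM in CD25, ISP and DP (0.46 and -0.57, SE 0.05 each, adjusted p = 7.13e-06 and 7.13e-07). Of the summed kinase level Pdk3 held 69.1 ± 1.30% in ISP and 41.3 ± 5.08% in DP libraries (SD, n = 4). Hif1a, whose protein is controlled mainly by oxygen-dependent breakdown, averaged 48.9, 46.6 and 48.5 RPKM in CD25, ISP and DP and was not called at either step (95% intervals -0.19 to 0.06 and -0.07 to 0.18), except under equal sums of RPKM, where it was called at both, and under quantile normalization, where it was called at the first.

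The oxidative arm of the pentose phosphate pathway runs through G6pdx, Pgls and Pgd. All 3 were called higher in ISP than in CD25 (33.1% of all genes) and lower in DP than in ISP (35% of all genes). G6pdx, the rate-limiting dehydrogenase, was at 48.1, 50.7, 47.5 and 47.0 RPKM in ISP libraries, against 37.5, 38.1, 37.7 and 41.5 RPKM in CD25 libraries, and at 38.1, 38.7, 31.5 and 30.4 RPKM in DP libraries. The ISP values lay above all others, with changes of 0.31 and -0.48 (SE 0.05 each, limma adjusted p = 6.59e-05 and 1.26e-06). The first calls of Pgls (0.23, adjusted p = 0.0198) and Pgd (0.18, adjusted p = 0.0147) were lost under equal sums and under quantile normalization.

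In the non-oxidative arm, transketolase and transaldolase exchange carbon units between sugars. Tkt was at 90.4, 94.3, 66.4 and 67.7 RPKM in DP libraries, against 199, 199, 183 and 197 RPKM in ISP libraries, and at 176, 176, 172 and 212 RPKM in CD25 libraries. The DP values lay far below the rest, with a change of -1.29 (SE 0.06, limma adjusted p = 1.84e-09), and ISP minus CD25 was not called (0.08, 95% interval -0.04 to 0.21). Taldo1 was higher in ISP than in CD25 (283 against 217 RPKM; 0.38, SE 0.05, adjusted p = 1.80e-05) and lower in DP than in ISP by only 0.20 (247 against 283 RPKM; adjusted p = 0.00238), a change that was 0.08 under quantile normalization. Rpia, the ribose phosphate isomerase, was at 1.77 to 4.61 RPKM, and its call as lower in DP (-0.40, adjusted p = 0.0391) was lost in 5 of the 8 fits that left out 1 library.

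Genes listed as markers of other cells moved with the populations. Of 5 NK and innate lymphoid markers 4 were called higher and 1 (Nkg7) lower in ISP than in CD25, and all 5 lower in DP than in ISP. Their sum was 208.8 to 306 RPKM in ISP libraries, 228 to 284 in CD25 and 18.4 to 30.9 in DP, and Ncr1 was at 6.497 to 10.3 RPKM in ISP and at 0 to 0.844 elsewhere. Klrb1c was at 0 in CD25 KO library 2 and DP KO library 2, and Ncr1 in DP KO library 1. Both tested genes of the mast cell list were lower in DP than in ISP. Cpa3 was at 0.905 RPKM in DP against 18.3 RPKM in ISP (-3.32), and Kit at 1.42 against 4.27 RPKM (-1.13). Their means were highest in CD25 cells, at 24.9 RPKM for Cpa3 and 11.3 RPKM for Kit. Mcpt4 and Cma1 were at 0 in all CD25 and DP libraries. Whether Cpa3 and Kit came from mast cells or from the thymocytes was not tested. The part of other cells in the changes of the glycolytic genes was not tested. Erythroid markers summed to at most 0.479 RPKM and B lineage markers to at most 0.367 RPKM in any library. Epcam, the only tested gene of the thymic epithelium list, averaged 112, 15.1 and 18.3 RPKM in CD25, ISP and DP. Pecam1, the only tested gene of the fibroblast and endothelium list, averaged 22.3, 24.2 and 38.5 RPKM in that order.

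Genotypes were compared within each population. In ISP and DP cells the KO and control libraries also differed in sex composition, with values given further below. In CD25 cells 0 of the 36 tested members were called in KO against control libraries (0.0188% of all 10622 genes were called, 2 in number, with 0.00941% higher and 0.00941% lower). At an unadjusted limma p under 0.05 there were 2 (5.56%, beside 9.15% of all genes), Pfkfb3 (8.68 and 8.02 RPKM in KO, against 5.54 and 6.93 in control libraries; 0.38, SE 0.12, adjusted p = 0.452) and Gapdh (342 and 348 RPKM in KO, against 374 and 465 in control; -0.27, SE 0.10, adjusted p = 0.470). Neither pair overlapped. Members' changes ran from -0.27 to 0.38, with a median of -0.03 beside 0.01 for all genes. limma-voom on recovered reads also called 0 members.

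In ISP cells 0 of the 37 tested members were called (0.354% of all 11288 genes were called, 40 in number, with 0.257% higher and 0.0974% lower), and limma-voom again called 0. At an unadjusted limma p under 0.05 there were 4 (10.8%, beside 13.2% of all genes). Slc2a3 was at 8.06 and 7.25 RPKM in KO, against 10.7 and 9.96 RPKM in control libraries (-0.39, SE 0.10, adjusted p = 0.110). Gpi1 (-0.21), Pfkm (-0.28) and Pgd (0.19) had adjusted p of 0.170, 0.222 and 0.331. Members' changes ran from -0.39 to 0.19, with a median of -0.03.

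In DP cells 8 of the 37 tested members were called, 4 higher and 4 lower in KO (10.8% each; 14.1% of all 11288 genes were called higher and 7.78% lower). The members' share of calls, 21.6%, was close to the 21.9% of all genes, so the count by itself says nothing particular of the pathway. Of the 6 pentose phosphate genes 3 were called higher and 0 lower, and of the 31 other tested members 1 was higher and 4 were lower; these counts carry no test.

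**Figure D4:**
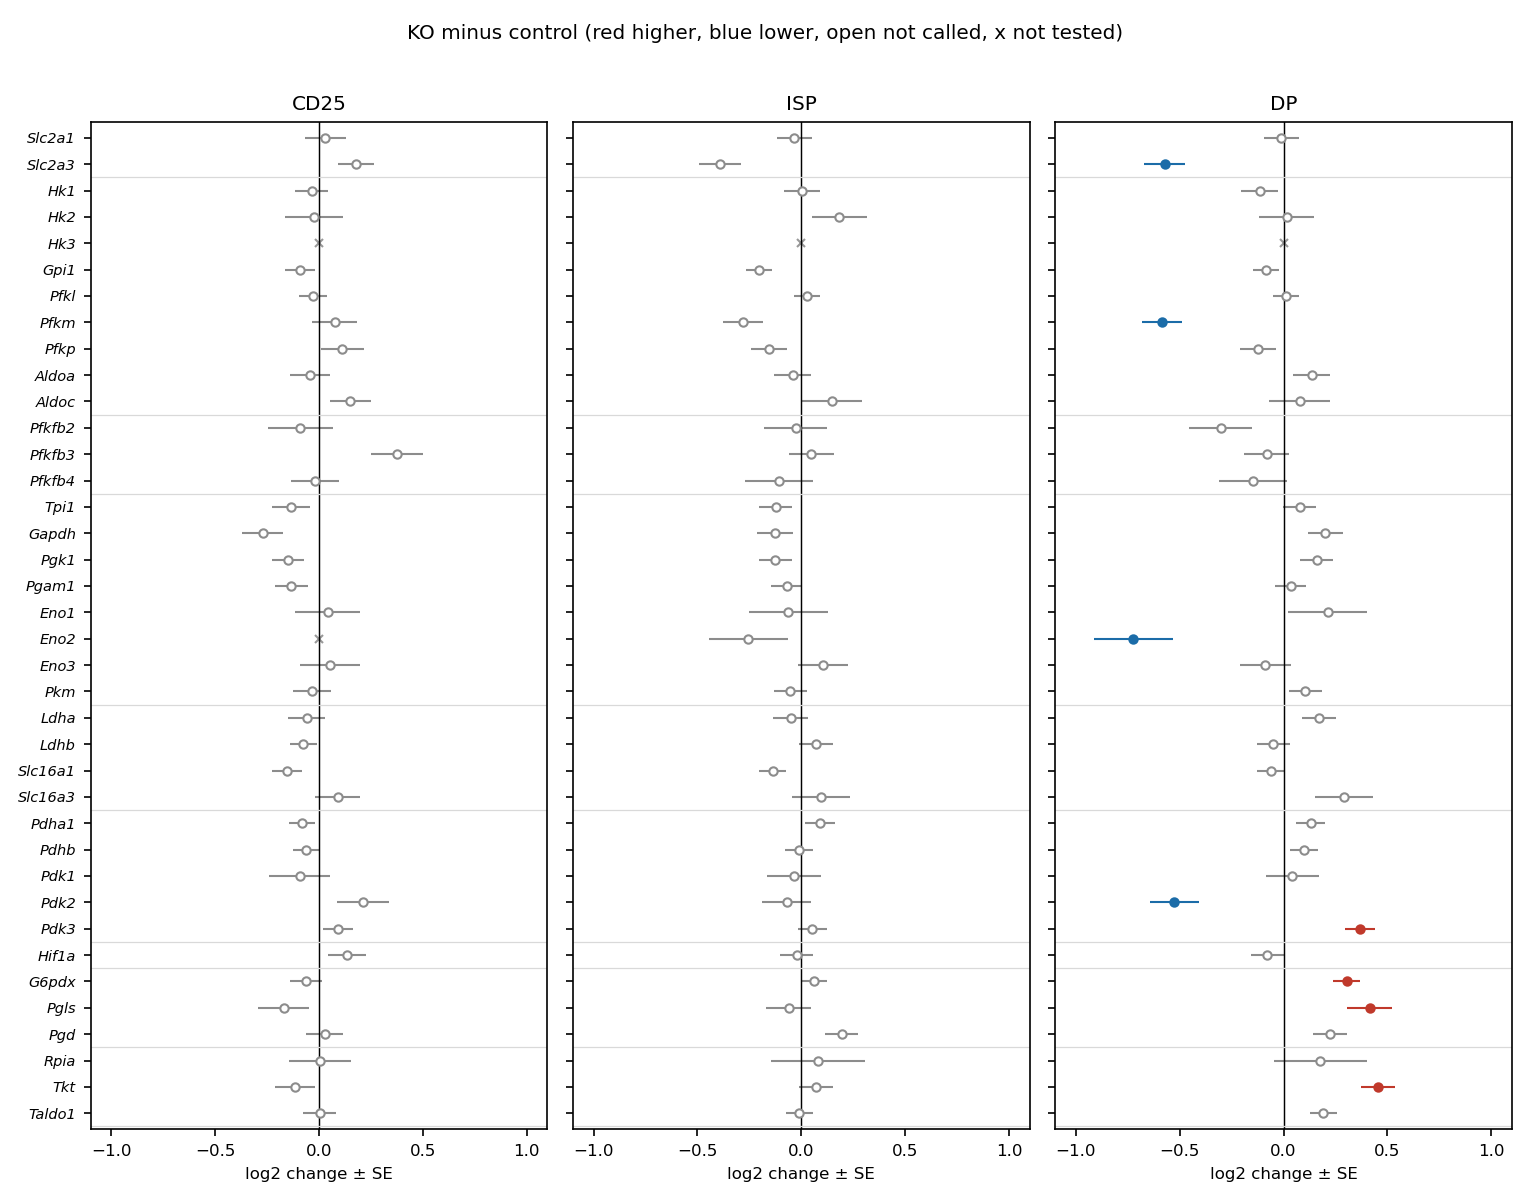
Points are the change of each gene for KO minus control in CD25, ISP and DP cells, as log2(RPKM + 1), with 2 libraries on each side and bars of ± 1 SE; red is called higher, blue called lower, open not called and x not tested. Called genes appear only in the DP panel, where Tkt, Pgls, Pdk3 and G6pdx lie right of 0 and Pfkm, Slc2a3, Pdk2 and Eno2 left of it.

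Among the pentose phosphate genes, Tkt was at 90.4 and 94.3 RPKM in DP KO, against 66.4 and 67.7 RPKM in DP control libraries. The pairs did not overlap, and the change was 0.46 (SE 0.08, limma adjusted p = 0.00287), or 1.38-fold. Pgls, the lactonase, was at 109 and 117 RPKM in DP KO, against 87.7 and 80.95 RPKM in DP control libraries, again with no overlap (0.41, SE 0.11, adjusted p = 0.0175), a call lost with no filter on low values (adjusted p = 0.0584). G6pdx was at 38.1 and 38.7 RPKM in DP KO, against 31.5 and 30.4 RPKM in DP control libraries, also apart (0.30, SE 0.06, adjusted p = 0.00685). Pgd (0.22, adjusted p = 0.0703) and Taldo1 (0.19, adjusted p = 0.0580) were not called, with each KO value above each control value (43.3 and 44.8 against 37.0 and 38.2 RPKM for Pgd, 259 and 268 against 236 and 226 RPKM for Taldo1). Rpia averaged 2.45 RPKM in DP KO and 2.06 RPKM in DP control libraries, and its pairs overlapped.

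The PDK kinases moved apart between genotypes in DP cells. Pdk3 was at 37.9 and 41.9 RPKM in DP KO, against 29.8 and 31.6 RPKM in DP control libraries (0.37, SE 0.07, limma adjusted p = 0.00473). Pdk2 was at 12.6 and 12.2 RPKM in DP KO, against 19.7 and 17.0 RPKM in DP control libraries (-0.53, SE 0.12, adjusted p = 0.00952). Neither gene's pairs overlapped. Pdk1 averaged 35.1 RPKM in DP KO and 34.0 RPKM in DP control libraries and was not called (0.04, 95% interval -0.24 to 0.32).

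Pfkm was at 7.21 and 7.38 RPKM in DP KO, against 11.3 and 11.7 RPKM in DP control libraries. This was the smallest p of the members in DP (-0.59, SE 0.10, limma adjusted p = 0.00198), and the pairs did not overlap. Pfkl and Pfkp, its partner subunits, were not called (0.01 and -0.12). Slc2a3 was at 6.97 and 7.15 RPKM in DP KO, against 12.1 and 9.99 RPKM in DP control libraries (-0.57, SE 0.10, adjusted p = 0.00247), again apart, whereas Slc2a1 had a change of -0.01 (95% interval -0.20 to 0.18). Eno2 was at 1.29 and 0.865 RPKM in DP KO, against 2.72 and 2.14 RPKM in DP control libraries (-0.72, SE 0.19, adjusted p = 0.0195), and lost its call with a pseudocount of 0.1 RPKM (adjusted p = 0.124).

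Ldha, Ldhb and Hk2, which differed widely between DP and ISP, were not called by genotype, unlike Pdk2 and Tkt. Ldha was at 580.0 and 609.8 RPKM in DP KO, against 529 and 527 RPKM in DP control libraries (0.17, SE 0.08, limma adjusted p = 0.166). Ldhb was at 641 and 642 RPKM in DP KO, against 658 and 670.0 RPKM in DP control libraries (-0.05, 95% interval -0.23 to 0.13). Hk2 was at 0.720 and 0.515 RPKM in DP KO, against 0.586 and 0.609 RPKM in DP control libraries, where the pairs overlapped (0.02, 95% interval -0.27 to 0.30). For Ldha the KO pair lay above the control pair, and for Ldhb below it.

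Some of these 8 calls rested on single libraries. Without DP KO library 2, 844 genes in all and 4 members were called (Tkt and G6pdx higher, Pfkm and Slc2a3 lower). Without it the adjusted p was 0.0699 for Pdk2, 0.153 for Eno2, 0.123 for Pgls and 0.0520 for Pdk3. Without DP control library 1 it was 0.0882 for Pdk2 and 0.134 for Eno2 (1106 genes called), and without DP control library 2 it was 0.112 for Pgls and 0.0535 for G6pdx (1176 genes called). Tkt, Pfkm and Slc2a3 were called in all 4 such fits. By library name all 4 libraries titled DP are KO libraries, so the names offer no comparison of genotypes within them, and under groups by library name Tkt, Pgls, G6pdx, Pdk3, Pfkm, Pdk2 and Eno2 had changes of the opposite sign.

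Other values moved with genotype in these libraries. Of 5 myeloid markers 2 (Lyz2 and Csf1r) were called higher in DP KO (14.1% of all genes). The other 3 were not called, with changes of -0.18 for Itgam, -0.14 for Mpo and 0.23 for Cd68. The 5 summed to 50.5 and 74.6 RPKM in DP KO and to 18.6 and 12.9 RPKM in DP control libraries. Lyz2, at 43.8 and 65.2 against 13.0 and 5.50 RPKM, made up most of the KO sums. Mpo was at 0 in DP KO library 2. In ISP cells the myeloid sum was 37.1 and 54.3 RPKM in KO and 11.9 and 12.2 RPKM in control libraries. There 1 of the 5 myeloid markers, Lyz2, was called higher in KO (35.1 against 5.11 RPKM, 2.55, limma adjusted p = 0.0189; 0.257% of all genes were called higher). Cpa3 averaged 25.3 RPKM in ISP KO and 11.3 RPKM in ISP control libraries (not called). Tyrobp, 1 of the 5 NK and innate lymphoid markers, was higher in DP KO (15.5 against 5.72 RPKM, limma adjusted p = 3.09e-04). The other 4 were not called, with changes of -0.54 for Ncr1, -0.17 for Klrd1, -0.04 for Klrb1c and 0.09 for Nkg7. Epcam was also higher in DP KO (20.9 against 15.7 RPKM, limma adjusted p = 0.00274). Pecam1 was lower (33.9 against 43.0 RPKM, limma adjusted p = 0.0167). Of 8 thymocyte markers 2 were lower in DP KO (7.78% of all genes). Cd4 was at 249.5 and 190.6 RPKM in DP KO, against 344 and 338 RPKM in DP control libraries (-0.64, adjusted p = 0.0253), and Il2ra averaged 17.8 RPKM in DP KO and 28.6 RPKM in DP control libraries (-0.66, adjusted p = 0.0127). The part of these differences in the changes of the members was not tested. The 4 anti-CD3 KO libraries had Ddx3y, a gene of the Y chromosome, at 0 to 0.0979 RPKM and the anti-CD3 control libraries at 7.28 to 56.3 RPKM, while Xist was at 20.8 to 25.6 RPKM in the KO libraries, against the control values given above. Pdk3 and G6pdx, like Pgk1 and Pdha1, lie on the X chromosome. Of 340 tested X-linked genes 13.8% were called higher and 6.47% lower in DP KO, with a median change of 0.02 beside 0.00 for all genes. Sex composition thus differed between the genotypes of the anti-CD3 libraries. It also varied within the controls, where Xist was near the KO values in library 1 and far below them in library 2 of both populations. Because Ddx3y set all KO libraries apart from all control libraries, sex and genotype cannot be told apart in comparisons of KO and control in ISP or DP cells. The part of sex composition in the changes of Pdk3, G6pdx and the other members was not tested.

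The genotype effects in DP and ISP cells were compared directly with an interaction contrast. By limma 0 of the 37 members were called (4.2% of all 11288 genes were called, 474 in number, with 3.68% higher and 0.523% lower), and 8 had an unadjusted p under 0.05 (21.6%, the same share as the 21.6% of all genes). Tkt had the smallest p, with a KO effect of 0.46 in DP and 0.07 in ISP cells (difference 0.39, SE 0.12, adjusted p = 0.0822). It was followed by Pgls (0.41 in DP and -0.06 in ISP; adjusted p = 0.0956) and Pdk3 (0.37 in DP and 0.05 in ISP; adjusted p = 0.103). limma-voom on recovered reads called 1 member, Tkt, and without DP KO library 1 the count was 2. For Pfkm (-0.59 in DP and -0.28 in ISP; adjusted p = 0.220) and Slc2a3 (-0.57 and -0.39; adjusted p = 0.495) the effects had the same sign in both populations.

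Genes around the pathway gave context. Fbp1, the gluconeogenic enzyme that opposes phosphofructokinase, averaged 4.00 RPKM in ISP against 100.4 RPKM in CD25 libraries (-4.39, limma adjusted p = 6.89e-11). Pgam2, the muscle form of the mutase, averaged 13.5 RPKM in ISP against 84.0 RPKM in CD25 (-2.56, adjusted p = 2.34e-10). In CD25 cells its value stood above that of Pgam1 (25.7 RPKM). Pgam1 shares 36.2% of its transcript stretches with other genes, so its reads may have been split or discarded. Which form of the mutase was more abundant in CD25 cells therefore cannot be told from these values. Of 10 tested genes of glycogen and glucose phosphate metabolism 0 were higher and 7 lower in ISP than in CD25 (33.1% and 30.9% of all genes), among them Pgm2 (18.5 against 40.05 RPKM) and Gyg, which encodes the glycogenin primer (45.3 against 82.2 RPKM).

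Myc, which drives many glycolytic genes in activated T cells, averaged 188, 143 and 29.2 RPKM in CD25, ISP and DP. In DP it was at 35.5 and 41.6 RPKM in KO, against 20.9 and 18.8 RPKM in control libraries (0.92, SE 0.08, limma adjusted p = 1.03e-04). Txnip, a brake on glucose uptake, was at 108 and 82.7 RPKM in DP KO, against 172 and 169.5 RPKM in DP control libraries (-0.84, SE 0.12, adjusted p = 0.00113), and averaged 133 RPKM in DP against 37.2 RPKM in ISP. Of 15 tested upstream regulators 2 were higher and 3 lower in DP KO (14.1% and 7.78% of all genes). Besides Myc and Txnip these were Rheb, higher by 0.42, and Rptor and Mlxip, lower by 0.47 and 0.40 (limma adjusted p = 0.00226, 0.0178 and 0.00996). Prps1, which turns ribose phosphate into the nucleotide precursor PRPP, was at 53.8 and 64.0 RPKM in DP KO, against 43.4 and 41.3 RPKM in DP control libraries (0.46, adjusted p = 0.00221), and is X-linked. It was 1 of 7 tested genes of pentose phosphate and nucleotide sugar supply outside the members to be called there. Of 16 tested HIF targets outside glycolysis 10 were higher and 3 lower in ISP than in CD25 (33.1% and 30.9% of all genes). Between DP and ISP 7 were higher and 6 lower, shares near those of all genes (35.6% and 35%). Egln1, an oxygen sensor, was at 42.6 RPKM in ISP against 20.7 RPKM in CD25, whereas Ndrg1 was at 19.5 RPKM in ISP against 85.1 RPKM in CD25.

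**Figure D5:**
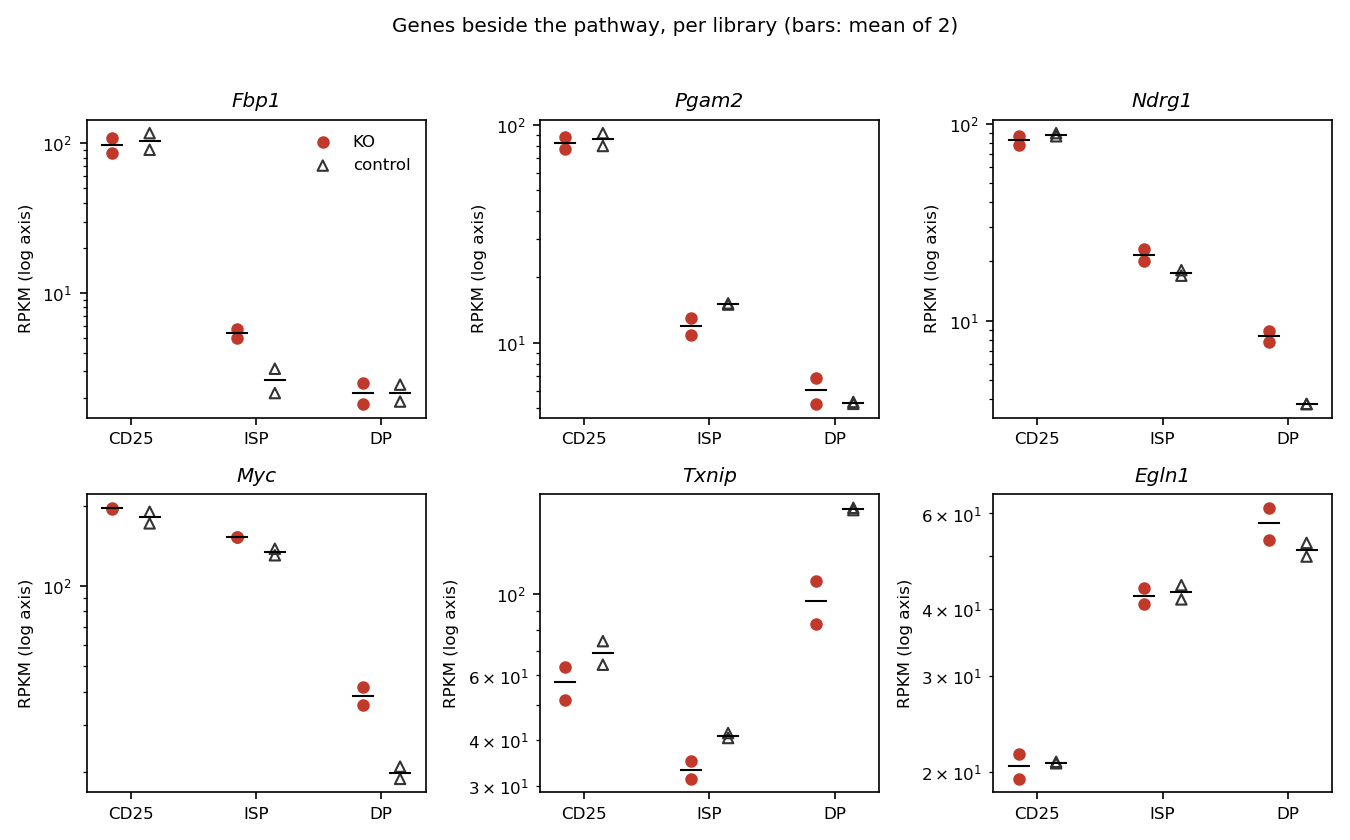
RPKM (log axes) of 6 genes outside the members in KO (filled circles, left) and control libraries (open triangles, right) of CD25, ISP and DP cells; bars are means of 2 libraries. Fbp1, Pgam2 and Ndrg1 are highest in CD25, Myc is higher and Txnip lower in DP KO than in DP control libraries, and Egln1 climbs over the populations.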

How the data were processed

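RNA-seq values of 12 libraries were deposited by the authors as RPKM per gene. BWA and the build GRCm38 are named in the submitters' processing notes; the counting method is not given in the sources used here. From the steps between low values, whole reads were recovered for all 17090 genes above 0 (100% within 0.02 reads), with denominators of 9508841 to 14356391 reads; 1 read per kilobase was worth 0.0697 to 0.105 RPKM. The floor of 3 reads covers counting error only, and the 95% intervals are limma's, from the spread between libraries. Of 24421 rows, 27 with date-like names were dropped.

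Values were tested as log2(RPKM + 1) with limma 3.58.1 (trend) in R 4.3.3, for genes at 1 RPKM or more in at least 2 libraries, with Benjamini-Hochberg adjustment at 0.05 over all genes. KO minus control in CD25 cells used its own 4 libraries, and all other contrasts a fit of 12 libraries in 6 groups. Fold changes of low genes are understated by the pseudocount. The members and lists were chosen with earlier results of these data known. Any member could be named; values per library went to called members in order of p (up to 8 per comparison) and to members that head a step, and up to 4 tested genes with the smallest p per comparison were named from each surrounding list. Ddx3y, Xist and the markers of other cells were named outside that rule, after their values were seen. Alternatives were another pseudocount, other filters, quantile and equal-sum scaling, limma-voom on recovered reads, a replicate block, libraries left out and groups by library name. Transcripts and positions were from GENCODE M21; promoters were from RefSeq, in which Slc2a3 had no entry.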

Additional observations from a re-analysis of the deposited data

How the results depend on the processing

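Leaving out 1 library kept 705 of 744 calls of named members. The ranges of genes called of KO minus control were 4 to 93 (CD25 cells), 6 to 56 (ISP) and 844 to 2601 (DP; members 2 to 5 higher, 2 to 4 lower); they were 6625 to 7026 for ISP minus CD25 (18 to 23 higher, 8 to 9 lower), 7489 to 7786 for DP minus ISP (6 to 7 higher, 22 to 23 lower), 8108 to 8386 for DP minus CD25 (10 to 11 higher, 18 to 21 lower) and 64 to 1051 for the interaction (0 to 2 members higher). In CD25 cells 1 gene was called with a pseudocount of 0.1 RPKM, 1 with no filter, 1 with quantile normalization, 14 with limma-voom and 9 in the fit of 12 libraries. In ISP cells it was 8 with no filter, 67 with a filter of 5 RPKM, 181 with limma-voom and 18 with the replicate block. The interaction gave 185 genes with no filter, 304 with quantile normalization, 294 with equal sums, 242 with the replicate block, and 1 member higher with limma-voom. Equal sums gave 11 members higher for DP minus ISP, and the 4 libraries with 1 population in both labels gave 5101 genes. Quantile normalization turned Gpi1 in ISP minus CD25 to -0.037 and Taldo1 in DP minus ISP to 0.0792. No label ties replicate numbers to embryos, and the correlations of same-numbered libraries over all genes were -0.066 to 0.125, the highest for ISP and DP control. Xist was alike in same-numbered ISP and DP control libraries (20.5 and 22.5 RPKM in number 1, 0.766 and 0.914 RPKM in number 2), so these may share embryos. The replicate block changed 0 of 97 member calls.

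Under groups by library name 29 of 97 values of called members changed sign, 41 lost their call and 27 kept it. They gave 5495 genes for KO minus control in ISP (members 5 higher, 22 lower), 5612 in DP (21 members lower), 10 members higher for ISP minus CD25, 0 genes and 0 members higher or lower for DP minus ISP, 10 members lower for DP minus CD25 and 0 genes for the interaction. For KO minus control in DP the changes were 1.58 for Pdk2, -1.29 for Tkt, 0.13 for Pfkm, 0.64 for Eno2, -0.58 for Pgls, -0.45 for G6pdx and -0.62 for Pdk3. For ISP minus CD25 they were 0.0424 for Pdk2, -0.36 for Pgam1, -0.0809 for Pgd, -0.22 for Hk2, -0.053 for Gpi1, -0.0543 for Ldha, -0.0661 for Pgls and -0.19 for Pgk1. For DP minus ISP they were 0.0277 for Pfkl, 0.0958 for Eno3, 0.0482 for Aldoc, -0.0954 for Pdk1, 0.0422 for Slc2a1, 0.0401 for Eno1, 0.0578 for Tpi1, 0.0051 for Gapdh, 0.0319 for Gpi1 and 0.0488 for Pgls. For DP minus CD25 they were 0.0344 for Slc16a1, 0.0967 for Gapdh, 0.22 for Aldoa and 0.0726 for G6pdx. This grouping swaps population and genotype by construction. For the other settings the cause was not tested. With 2 libraries a group, small genotype differences and genes of few reads (Hk3, Eno2) were limited by depth and replication.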

Other observations

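In DP cells, genes that hand carbon and electrons between cytosol and mitochondrion gave 3 calls higher and 0 lower in KO among 10 tested genes of glycerol and shunt metabolism (14.1% and 7.78% of all genes). Got1, the cytosolic aspartate aminotransferase of the malate-aspartate shuttle, was at 26.5 and 28.9 RPKM in DP KO, against 18.3 and 17.6 RPKM in DP control libraries (0.60, limma adjusted p = 3.09e-04). The other 2 of these calls were Got2 and Mdh1. In a separate list, of 9 tested genes of pyruvate entry and pyruvate dehydrogenase outside the members, 1 was higher and 0 lower in DP KO (14.1% and 7.78% of all genes). This was Mpc2, a subunit of the mitochondrial pyruvate carrier. It was at 128 and 135 RPKM in DP KO, against 112 and 110.1 RPKM in DP control libraries (0.25, limma adjusted p = 0.0117). The pairs did not overlap for Got1 or Mpc2. Of 6 tested hexosamine genes 0 were higher and 2 lower in DP KO (14.1% and 7.78% of all genes). Ogt, which attaches O-GlcNAc, averaged 127 RPKM in DP KO and 167 RPKM in DP control libraries (-0.40, adjusted p = 0.00102), and Mgea5, which removes it, averaged 120 RPKM in DP KO and 145 RPKM in DP control libraries (-0.28, adjusted p = 0.00839). The KO effect differed between DP and ISP cells for Got1 (0.64, adjusted p = 0.00958), Mpc2 (0.34, adjusted p = 0.0416) and Ogt (-0.35, adjusted p = 0.0360) in the interaction contrast by limma. Ogt is X-linked. Whether these 3 differences held under the other settings was not tested. These genes were named with earlier results of these data known.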
